A study of Homo sapiens with 10 samples.

Results

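U2, U12, 7SK and U3 are abundant nuclear non-coding RNAs, and peaks at 8 of their RefSeq loci were examined among the RNAs crosslinked to PUS7 by iCLIP. The 8 loci were RNU2-2, RNU2-70P, RNU2-64P and RNU2-3P for U2, RNU12, RN7SK, and SNORD3A and SNORD3C for U3. They were chosen because earlier results of these lists showed peaks there, so their presence in the lists is a description and carries no test. A peak was counted where it shared at least 1 base with one of the genes on GRCh38, and 17 of the 2048 peaks in all 5 lists did so (0.830%).

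PUS7 is a pseudouridine synthase that recognises its RNA targets without a guide RNA. In iCLIP, intact cells are irradiated with UV light so that RNA is covalently joined to the proteins it touches, and the RNA joined to 1 protein is then sequenced. All cells lacked their own PUS7. The 5 peak lists came from cells that had a FLAG-tagged PUS7 put back (PUS7KO+FlagPUS7), which were irradiated at 254 nm with 200 mJ/cm2, and the tagged protein was collected with an antibody to FLAG over 2 h at 4 °C. HEK 293T, a transformed embryonic kidney line at passage 20 to 25, had 3 of these libraries, and H9, a human embryonic stem cell line at passage 40 to 45, had 2. Knockout cells without the tagged protein (PUS7KO) were pulled down in the same way, in 3 libraries of 293T and 2 of H9, and no peak list of theirs was used here. The labels do not say which promoter drives the tagged PUS7, how much of it the cells make, or whether the knockout lines are single clones. They also do not say whether the libraries of a group came from separately grown cultures, so the spread between them may be technical.

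U2 small nuclear RNA is the part of the major spliceosome that pairs with the branch site of an intron, and U12 does the same in the minor spliceosome, which removes a rare class of introns. The yeast homologue Pus7 is known to pseudouridylate U2 in the region that pairs with the branch site. 7SK RNA is the scaffold of a particle that holds the transcription elongation factor P-TEFb inactive, and U3 is a box C/D small nucleolar RNA needed for the first cleavages of ribosomal RNA precursors. U2 and 7SK in particular have many pseudogene copies in the human genome, U3 has several near-identical genes, and reads from 1 RNA can align to a near-identical copy. No source used here says how reads with several equally good positions were placed, so a value at any single U2 or U3 copy is uncertain.

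Each peak carried a signal per bin of 200 bases, averaged where a peak spanned several bins, and a second value that was read as the natural log of a second count plus 1. What the second count measured is not stated. It may be background, and it is given beside the signal of each gene. The 293T lists held 120, 85 and 39 peaks with summed signals of 7536, 7215 and 4162, and the H9 lists 1605 and 199 peaks with 13742 and 5287. Summed second counts were 122.8, 68.2 and 20.4 for 293T, then 918.2 and 1740 for H9, so that the second H9 list had the highest second count beside a signal below that of the first. The depth of sequencing is unknown and signals are not known to be scaled for it. Intervals are 95% and cover counting error only.

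In H9 all 8 genes had a peak in both lists. When overlapping peaks of the same strand were joined across lists, 190 of 1619 loci (11.7%) had one in both H9 lists. The 8 genes were chosen on these lists, so nothing is read from the count. In 293T only RNU2-2 had a peak, in the first of 3 lists. The other 293T lists held none of the genes among their 85 and 39 peaks, which allows a share of peaks of up to 3.53% and 7.69% by the limit of 3 counts. A list keeps only bins above the caller's limit, and the lowest signal in the 293T lists was 9, 13 and 22, so that an unlisted gene need not be at 0. The genes made up 0.833% of peaks in the first 293T list (exact binomial 95% interval 0.0211 to 4.56), 0.498% in the first H9 list (0.215 to 0.980) and 4.02% in the second (1.75 to 7.77).

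**Figure D1:**
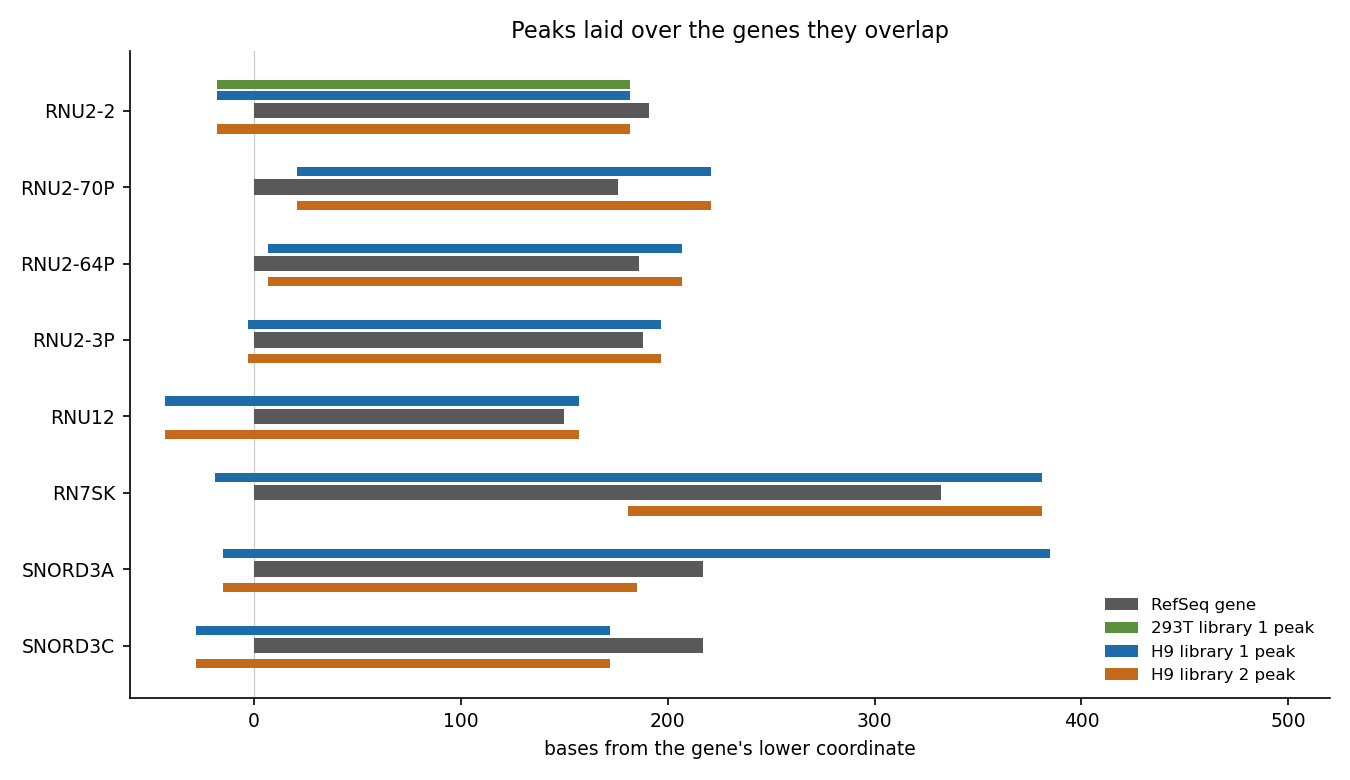
Each grey bar is a RefSeq gene drawn to scale from its lower coordinate (x axis, bases), and the coloured bars are the peaks of the first 293T list and both H9 lists that overlap it. Peaks are whole 200-base bins and start at the same place in both H9 lists for every gene but RN7SK, where the second list holds only the right-hand bin.

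The bins fit the genes closely but not exactly. RNU2-2 lies on chromosome 11 at 62841619 to 62841809 (191 bases, annotated as an snRNA, formerly RNU2-2P), and its peak at 62841601 to 62841800 on the minus strand covered 182 of them. RNU2-70P (chromosome 1, 236267780 to 236267955), RNU2-64P (chromosome 3, 73110994 to 73111179) and RNU2-3P (chromosome 15, 95745804 to 95745991) are annotated as pseudogenes and were covered by 155 of 176, 179 of 186 and 188 of 188 bases. RNU12 (chromosome 22, 42615244 to 42615393) was covered in full. RN7SK (chromosome 6, 52995620 to 52995951) was covered in full by a peak of 2 bins in the first H9 list and by 151 of its 332 bases in the second. SNORD3A (chromosome 17, 19188016 to 19188232) was covered in full in the first H9 list and over 185 of 217 bases in the second, and SNORD3C (chromosome 17, 19190029 to 19190245) over 172 of 217 bases in both. The peak strand of each gene was the same in every list that held it. The smallest overlap was 150 bases, the whole of RNU12, and the nearest peak without overlap lay 1629 bases away, at SNORD3A beside SNORD3C. The same bins also overlap the protein-coding gene WDR74 at RNU2-2, the protein-coding gene ERO1B at RNU2-70P and the lncRNA gene LOC107986098 at RNU2-64P.

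Among the described U2 loci, only RNU2-2 is annotated as a gene and not a pseudogene. RNU2-2 had a signal of 60 beside a second count of 18 in the first 293T list. It had 98 beside 26 in the first H9 list and 67 beside 65 in the second. The signal was therefore 3.33, 3.77 and 1.03 times the second count. In the second H9 list the intervals of both values (51.9 to 85.1 for the signal, 50.2 to 82.8 for the second count) nearly coincided. In the first 293T list the second count of RNU2-2 was the highest of all 120 peaks, and its signal ranked 22nd by size.

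The copies RNU2-70P and RNU2-64P had signals whose counting intervals overlapped that of RNU2-2 in both H9 lists, and RNU2-3P was lower. RNU2-70P had 91 beside a second count of 22 in the first H9 list and 64 beside 105 in the second. RNU2-64P had 90 beside 35, then 65 beside 76. RNU2-3P, the lowest of the copies in both lists, had 53 beside 22, then 42 beside 50. In the first list its interval (39.7 to 69.3) lay below that of RNU2-2 (79.6 to 119.4). In the second list its interval (30.3 to 56.8) overlapped that of RNU2-2 (51.9 to 85.1). In the first H9 list each copy stood 2.41 to 4.14 times above its second count, and in the second list 0.610 to 0.855 times. RNU2-64P had the highest second count of all 1605 peaks in the first H9 list, and RNU2-70P the highest of all 199 in the second. None of the copies had a peak in a 293T list.

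RNU12 had the highest ratio of signal to second count among the 8 genes in the first H9 list, with a signal of 55 beside a second count of 4, or 13.8 times. In the second H9 list it had 16 beside 21. The intervals were 41.4 to 71.6 against 1.09 to 10.2 in the first list, and 9.15 to 26.0 against 13.0 to 32.1 in the second. The single U12 locus thus stood apart from its second count in the first H9 list, and in the second it did not.

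RN7SK had a mean signal of 64 over 2 bins in the first H9 list, beside a second count of 5.16 per bin, taken as a geometric mean. Added over the bins, these were a signal of 128 and second counts of 1 and 18. In the second H9 list the right-hand bin alone was listed, with a signal of 28 beside a second count of 66. That ratio of 0.424 was the lowest of the 8 genes, and the intervals of signal (18.6 to 40.5) and second count (51.0 to 83.97) did not overlap.

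The U3 genes SNORD3A and SNORD3C are neighbours, and their peaks lay on opposite strands. SNORD3A had a mean signal of 44.5 beside 8.33 in the first H9 list, which is a sum of 89 beside second counts of 2 and 28, and 28 beside 40 in the second list. SNORD3C had 64 beside 22 in the first list and 18 beside 22 in the second. Its second count was the same in both lists while its signal in the second list was 0.281 times that in the first. Of the other U3 loci, SNORD3B-1 had 18.5 beside 4.29 and SNORD3D 3 beside 1 in the first H9 list, and neither had a peak elsewhere. SNORD3B-2 had none.

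**Figure D2:**
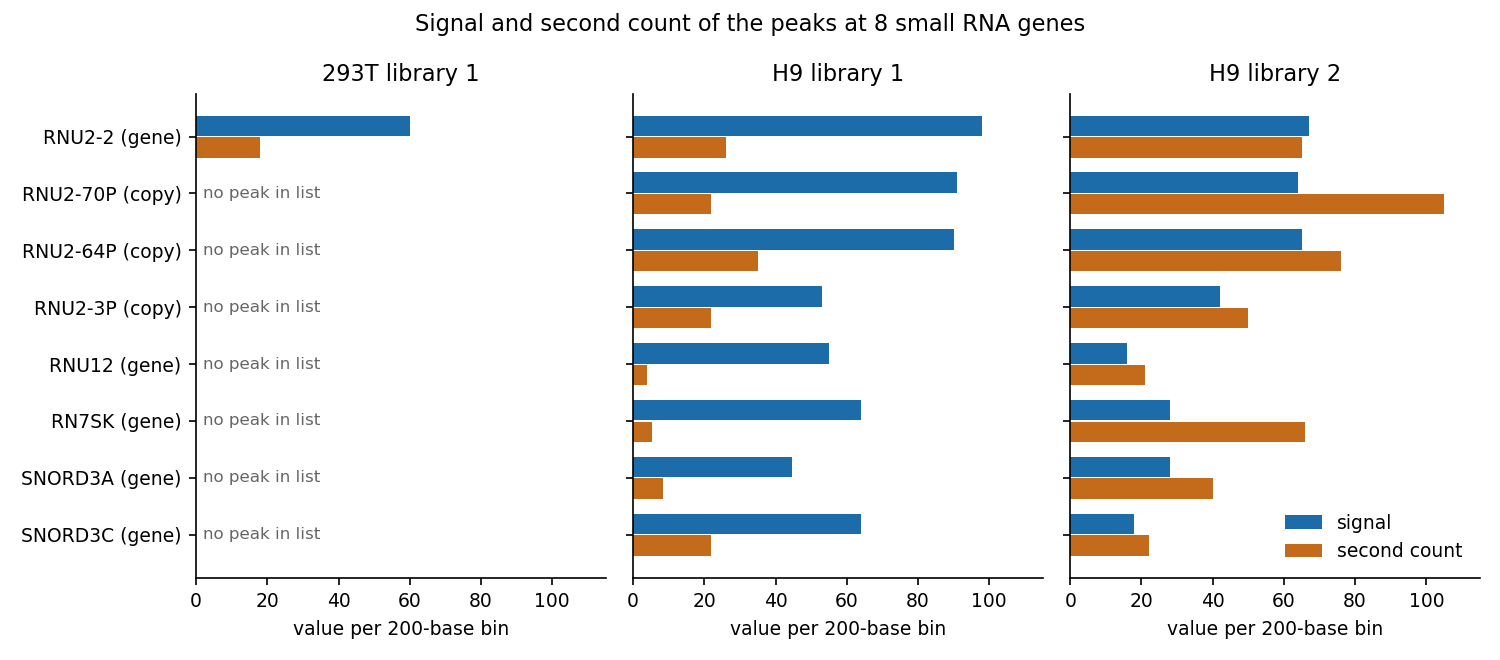
Bars give the signal (blue) and the second count (orange) per 200-base bin of each peak, by gene and by list, from 0, and the other 293T lists are left out because they hold none of the genes. Signal exceeds the second count in every bar pair of the first H9 list, and in the second H9 list only at RNU2-2, with 67 beside 65.

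Set against their lists, the genes differed between the H9 libraries in the ratio of signal to second count. A peak with a second count of 0 meets any fold limit, which raises the shares over all peaks. All member peaks had a second count above 0, as did 20.3% of all peaks in the first H9 list and 62.8% in the second. Among other peaks with a second count above 0, the median ratio was 5 in the first H9 list and 1.26 in the second. At the 8 genes it was 3.95 and 0.790. In the first H9 list 8 of 8 member peaks had a signal at least 2 times the second count, against 98.6% of all peaks in that list, so that their count was near the background. In the second H9 list 0 of 8 did, against 58.3% of all peaks. In that list 2 of 9 other U2 peaks did, 1 of 5 U1, 0 of 2 U4 and 0 of 5 U5 peaks. So did 0 of 3 other minor spliceosome peaks and 4 of 14 at other small nucleolar and related RNAs. Both U6 peaks (2 of 2) and the other 7SK peak (1 of 1) did, and 1 of 3 at 7SL and RMRP loci. A low ratio was thus not particular to the 8 loci. There 7 of 8 had a signal below the second count, against 20.1% of all peaks, and in the first list 0 of 8 did, against 0.0623%. The lowest of the authors' p-values in the list was carried by 5 of 8 in the second H9 list, against 26.1% of all peaks, and by 0 of 8 in the first, against 0.81%. Over all lists, 3 of 17 member peaks had a signal at least 5 times the second count, against 86.8% of all peaks, and 2 of 17 did where the bins of wider peaks were summed, SNORD3A then being at 2.97 and RN7SK at 6.74. With both values divided by their list totals, 0 of 17 reached 2 times, against 76.7%. These pooled counts repeat the same loci. The second H9 list held 8 of the 17 peaks but 199 of all 2048, so the pooled shares mix lists with loci. The 1 peak in the first 293T list met the 2-fold limit, as did 100% of that list. Among the 60 other peaks of the second H9 list with a signal of at least 16, the lowest of the 8 genes, 42 met the 2-fold limit (70.0%) and 8 were below their second count (13.3%). Among the 12 other peaks of that list with a second count of at least 21, also the lowest of the 8, 1 met the limit and 8 were below their second count. A low ratio was thus shared by other peaks of high second count, but choosing on that count itself favours a low ratio. The peaks with a signal of at least 16 shared it less. They had no upper limit of signal and included peaks with a second count of 0, so nothing is read from this. By counting error, the intervals of signal and second count were apart at all 8 genes in the first H9 list. In the second they overlapped at 6 and were apart, with the signal lower, at RNU2-70P and RN7SK. The same share over all peaks was not computed, so nothing is read from these interval counts. With 2 H9 libraries the difference between lists was not tested.

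**Figure D3:**
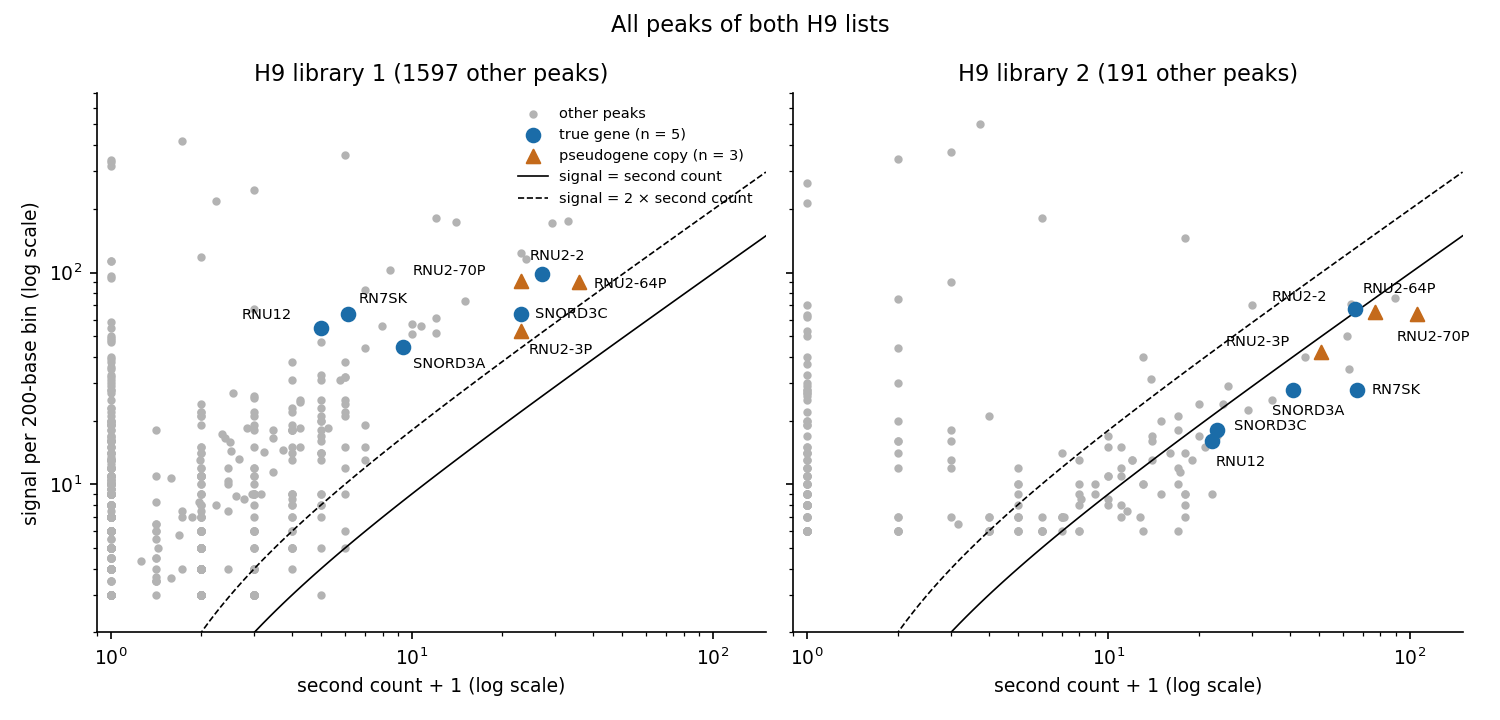
Every peak of the first (left) and second (right) H9 list is placed by its second count plus 1 (x axis) and its signal per 200-base bin (y axis), both on log scales, with the 5 genes as blue circles and the 3 pseudogene copies as orange triangles. The solid line marks equal values and the dashed line a signal 2 times the second count. All 8 loci lie above the dashed line on the left, and on the right all lie below it, 7 of them also below the solid line.

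As a share of each list, the genes weighed more in the second count than in the signal. They carried 4.07% of the signal and 15.7% of the second count in the first H9 list, and 6.20% of the signal and 25.6% of the second count in the second. In the first 293T list RNU2-2 alone carried 0.796% of the signal and 14.7% of the second count. The mean share of signal was 5.14% ± 1.51 (SD, n = 2) in H9 and 0.265% ± 0.460 (SD, n = 3) in 293T. The 293T minus H9 difference was -4.87 percentage points, and the values of the lines did not overlap. No test was made, because the loci were chosen on these lists, and the lines also differed in the length and lowest signal of their lists. The difference was -1.34 points when a peak had to hold the whole gene, and without the first 293T list the 293T share was 0. The levels of these RNAs in the cells were not measured, and the second count may be background. More RNA, more crosslinking per RNA and more background therefore cannot be told apart.

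**Figure D4:**
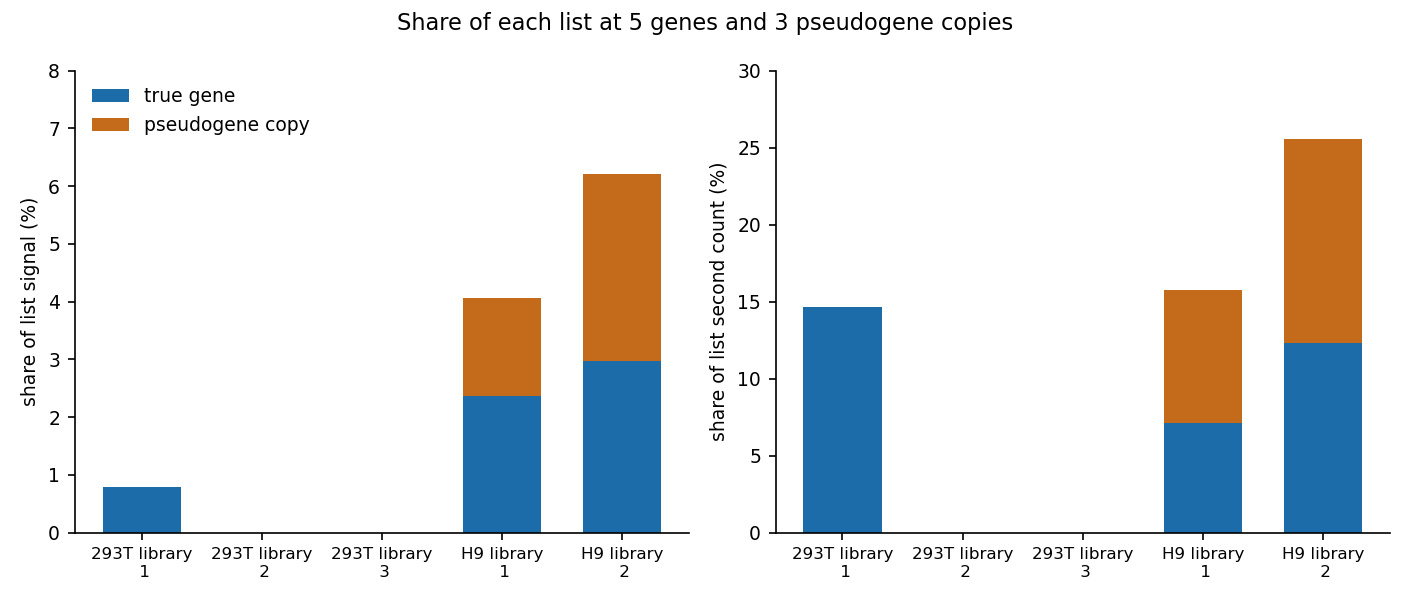
Stacked bars give the percent of a list's summed signal (left) and summed second count (right) at the 5 genes (blue) and the 3 U2 pseudogene copies (orange) for each of the 5 lists. The other 293T lists have no bar because they hold none of the loci, and in both H9 lists the right-hand share (15.7% and 25.6%) is above the left-hand one (4.07% and 6.20%).

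All 3 pseudogene copies are of U2, and RNU2-2 is the only U2 gene among the 5 genes. Gene against copy therefore cannot be told apart from U2 against the other RNAs. True genes and pseudogene copies overlapped in signal, in the second H9 list only through RNU2-2. In the first H9 list the 5 genes ranged from 44.5 to 98 (median 64) and the 3 copies from 53 to 91 (median 90). In the second the genes ranged from 16 to 67 (median 28) and the copies from 42 to 65 (median 64). The ratio of signal to second count was 2.91 to 13.8 at the genes and 2.41 to 4.14 at the copies in the first list, and 0.424 to 1.03 and 0.610 to 0.855 in the second. The ranges of the ratio overlapped in each list. Without RNU2-2, the other 4 genes had signals of 16 to 28 in the second list, below all 3 copies, and in the first list they had 44.5 to 64, of which all but SNORD3A exceeded RNU2-3P. The copies carried 1.70% and 3.23% of the signal of the H9 lists, and the genes 2.37% and 2.97%. In 293T, 1 of 5 genes and 0 of 3 copies had a peak. Of the 190 loci with a peak in both H9 lists, 55.8% had none in 293T.

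Per 100 bases of gene under the peak, RNU2-70P was highest in the first H9 list with a summed signal of 58.7, followed by RNU2-2 with 53.8, RNU2-64P with 50.3, SNORD3A with 41.0, RN7SK with 38.6, SNORD3C with 37.2, RNU12 with 36.7 and RNU2-3P with 28.2. In the second H9 list the order was RNU2-70P with 41.3, RNU2-2 with 36.8, RNU2-64P with 36.3, RNU2-3P with 22.3, RN7SK with 18.5, SNORD3A with 15.1, RNU12 with 10.7 and SNORD3C with 10.5. The 3 highest were the same in both lists. In each list, all 7 pairs of neighbours in the order had overlapping counting intervals. Some loci further apart in the order did not overlap. In the first list RNU2-70P (47.3 to 72.1) lay above RNU2-3P (21.1 to 36.9). In the second, RNU2-64P (28.0 to 46.3) lay above RN7SK (12.3 to 26.8). As a share of list signal, RNU2-3P in the second H9 list was 2.06 times its share in the first, and the other U2 loci were 1.78 to 1.88 times theirs. RNU12 and SNORD3C were 0.756 and 0.731 times theirs.

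Peaks in both H9 lists and in no 293T list were found at 7 of the 8 genes. The same held for 55.8% of the 190 loci with a peak in both H9 lists, and the loci were chosen on these lists, so nothing is read from the count. The loci most like each gene were sought among those listed in the same libraries, by the mean absolute difference in log2 percent of list signal. For RNU2-70P the nearest of 90 such loci was RNU2-64P (0.02 over 2 lists), and the asparagine tRNA gene TRN-GTT7-1 came second (0.52). TRN-GTT7-1 had signals of 96 and 33 in the H9 lists and a second count of 0 in both. SNORD3C and RNU12 were nearest to each other (0.19), and SNORD3A was nearest to the isoleucine tRNA gene TRI-AAT2-1 (0.15), whose second count was also 0 in both lists. For RNU2-2, over 3 lists and 12 loci, the nearest were MTND6P3 (0.96), a pseudogene of a mitochondrial gene on chromosome 5, RNU5A-1 (1.21) and RNU4-2 (1.23).

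Other loci of the same families had peaks of mostly lower signal. The described loci were chosen with these lists known, so their higher signal may follow from the choice, and nothing is read from it. A peak in both H9 lists did not alone set the choice, because 9 other U2 loci also had one in each. Of 70 U2 genes and copies in the gene table, 25 had a peak in the first H9 list and 13 in the second. In 293T, 2 did, both in the first list. The 21 U2 loci beyond the 4 described had signals of 3 to 22 in the first H9 list, below those of all 4, beside second counts of 0 to 6. The 9 of them in the second H9 list had 7 to 17 beside 4 to 21. Among these, RNU2-26P had 20 beside a second count of 4, then 17 beside 19, and RNU2-33P had 6 beside 0, then 17 beside 9. RNU2-1, the U2 gene on chromosome 17 (43233790 to 43233977), had no peak in any list. How reads with several equally good positions were placed is not known, so its lack of a peak is uncertain too. In the 7SK family, 10 loci other than RN7SK had peaks in the first H9 list with signals of 3 to 18 beside second counts of 0 to 3, and 1 in the second, RN7SKP80, with 18 beside 3 and 6 beside 3.

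Among the other spliceosomal RNAs, U4 and U5 were listed in 293T as well as in H9. For 293T, RNU4-1 had 92 and 49 in the first 2 lists, each beside a second count of 5, and for H9 it had 180 beside 11, then 40 beside 44. RNU5B-1 had 67 beside 1, 19 beside 0, 52 beside 11 and 11 beside 9 in the same lists. RNU6ATAC, which works with U12 in the minor spliceosome, had 29 beside 6, 27 beside 1, 61 beside 11 and 20 beside 14. These loci also had a signal at least 2 times the second count in the first H9 list and not in the second.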

How the data were processed

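The members, gene families and measures were chosen with earlier results of these data known. Each peak list, 1 per FLAG-PUS7 library, has 8 columns without a header. The authors deposited a signal (coverage per 200-base bin), a p-value from a test that is not stated, and a value on a natural log scale. In all peaks of 1 bin the exponential of the last is whole within 0.001. It was read as a second count plus 1, with 0 written as 1e-05, and as a geometric mean in wider peaks. Bowtie, SAMtools, bedtools and hg38 are named per the submitters' processing notes, which give no role or version. No source used here names the program that called peaks. Genes came from the RefSeq table of GRCh38.p14, which gives no strand, and peak starts were made 1-based. All 8 members matched by symbol. Sequences of these RNAs were not used here. Intervals are exact Poisson or binomial. Overlap and decoding were tested on simulated data. Python 3.11.15, pandas 2.3.3 and scipy 1.17.1 were used. Named genes are the 8 members, genes of fixed small RNA families with a peak in at least 2 lists (examples are given) and the 3 loci most like a member. SNORD3B-1, SNORD3B-2, SNORD3D and RNU2-1 were named after their values were seen. Genes on chromosome Y and the 10 tRNA tables were not analysed here. Alternatives were the overlap, limits on p and signal, the fold, the scaling, and leaving out each library.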

Additional observations from a re-analysis of the deposited data

How the results depend on the processing

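Asking that at least 50% of the gene lie in the peak, or that the authors' p-value be under 0.01, left 16 of 17 peaks, and a signal of at least 10 left all 17. Asking for the whole gene left 6 peaks at 4 genes, with a mean share of list signal of 0.535% against 2.21%, a 293T minus H9 difference of -1.34 points, 4 peaks past the 2-fold limit, and 2 more gene-and-list pairs at true genes than at copies against 5. That lead follows the group sizes: per pair, 44% of 25 for genes and 40% of 15 for copies had a peak, and 16% and 13.3% with the whole gene. That difference in share was -6.54 points with a signal of at least 10, and -7.95 points with at least 22, the lowest signal of the shortest list, an alternative chosen after seeing the data. Of 17 peaks, 9 met the 2-fold limit (94.8% of all peaks) and 3 met 5 times (86.8% of all peaks). Once both values were divided by their list totals, 0 met 2 times (76.7%). The shares over all peaks include those with a second count of 0, which meet any limit. They also weigh the lists differently from the 17 peaks, which repeat the same loci. Reading every second count as 1 higher, also chosen after seeing the data, left 9. Summing the bins of wider peaks, likewise, gave 9 at 2 times and 2 at 5 times. Leaving out 1 library at a time gave 9 to 17 peaks, 1 to 9 past the 2-fold limit, a mean share of 1.22% to 2.77%, a difference in share of -5.94 to -3.81 points, and a lead of true genes of 3 to 5 pairs. The 9 peaks remain without either H9 library, the 1 past the limit without the first, and the mean share of 1.22% without the second. Summing peaks of a gene changed nothing because no gene had more than 1 peak in a list. The same-strand alternative was not run because the gene table holds no strand. No paired analysis was possible because no result comes from a test. Without counts per library, depth cannot be weighed.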

Other observations

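RMRP, the RNA of the ribonuclease that cleaves ribosomal RNA precursors, was listed with high signals beside the U3 genes: 45 beside a second count of 6.21 and 40 beside 4 in 293T, then 170.5 beside 28.2 and 75.5 beside 88.7 in H9. The small nucleolar RNA gene SNORD118, which encodes U8, had 11 beside 0 in the first 293T list, 44 beside 6 and 18 beside 16 in the H9 lists. SNORD97 had 47 beside 4 and 13 beside 11 in the H9 lists. The U4 copy RNU4-4P had 28 beside 1 in the first 293T list and 15 beside 2 in the first H9 list.

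The authors' p-values did not follow the gap between signal and second count at these loci. In the second H9 list 5 of the 8 genes had the lowest p-value of the list, 3.38e-12, which 26.1% of its peaks shared, although the signal of 4 of the 5 was below the second count. In the first H9 list RNU2-70P, RNU2-3P and SNORD3C all had a second count of 22 and the same p-value of 5.59e-11, with signals of 91, 53 and 64. RNU2-2 with its signal of 60 in 293T had a p-value of 0.0237, and with 98 in the first H9 list 2.14e-11. The 40 peaks of the second H9 list with a signal below the second count had p-values from 3.38e-12 to 0.0156.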
